A study of Caenorhabditis elegans with 15 samples.

Results

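This comparison sets embryos with a deletion of met-2 against embryos in which the MET-2 protein is present but catalytically deficient. It uses 6 of the 15 RNA-seq libraries of the study and every gene of its count table. The 3 met-2Δ libraries carry the deletion allele met-2(n4256), and the 3 met-2-CD libraries carry met-2(gw1660), a point mutation that changes a conserved cysteine of the SET domain to alanine. All 6 came from early Caenorhabditis elegans embryos kept at 20 °C. The question is how expression differs when the MET-2 protein is missing and when it is present without its activity, which the study describes as deficient in the point mutant. Each strain is represented by 1 allele, and the comparison cannot separate that allele from the rest of its strain background. Wild-type N2 embryos (WT, 3 libraries at 20 °C) were not part of the comparison and are quoted only as background levels. The remaining libraries are met-2Δ and WT embryos after 1 h at 37 °C, 3 of each.

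MET-2 is the C. elegans counterpart of SETDB1, an enzyme that places methyl groups on histone H3 lysine 9 and thereby marks heterochromatin, the compact and mostly silent part of the genome. In C. elegans the marked regions lie mainly on the chromosome arms and hold repeats, pseudogenes and genes that are expressed only in particular tissues. MET-2 acts with LIN-65, a partner related to mammalian ATF7IP, and with ARLE-14, and it gathers in foci in the nucleus. SET-25 is the other H3K9 methyltransferase of the embryo.

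The targeted gene separated the groups. Levels are given in CPM, the count of a gene scaled to the size of its library after TMM normalization, a correction for differences in composition between libraries. met-2 (chromosome III, 8375300 to 8380848 in WBcel235) was at 32.9, 35.1 and 34.5 CPM in met-2Δ, against 305, 299 and 278 CPM in met-2-CD, and WT embryos averaged 320 ± 7.38 CPM (SD, n = 3). All 3 met-2Δ libraries lay far below the met-2-CD libraries but still held met-2 reads, which the gene totals do not place along the gene. The log2 fold change (log2FC, met-2Δ over met-2-CD throughout) was −3.11 ± 0.07 (standard error; edgeR FDR 2.12e-07). The partners were at like levels in both strains: lin-65 averaged 190 CPM in met-2Δ, against 182 CPM in met-2-CD (log2FC 0.06, FDR 0.494), and arle-14 and set-25 had log2FC of 0.09 (FDR 0.44) and 0.05 (FDR 0.712).

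Depth and spread differed between the strains. The met-2Δ libraries held 20.05 to 26.26 M counts and the met-2-CD libraries 38.14 to 48.56 M. The met-2-CD libraries were less alike than the met-2Δ libraries. The chi-square of counts per degree of freedom between replicates ran from 8.14 to 16.1 in met-2Δ and from 32.2 to 53.6 in met-2-CD. It was computed on raw counts and grows with depth where replicates differ beyond counting error, so the deeper met-2-CD libraries raise it in part. On the CPM scale 53 genes differed by more than 2-fold among the met-2Δ libraries, against 928 among the met-2-CD libraries (highest over lowest library, with 0.5 CPM added to each). In a principal component analysis the first component (67.5% of the variance) separated the strains, and the second (19.5%) spread the met-2-CD libraries, with a at −30.5, b at 2.91 and c at 39.8. The letters a, b and c are those of the columns, and no label says whether they pair libraries across strains.

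Of 13428 genes with enough counts to test, 402 (2.99%) had a higher level in met-2Δ and 94 (0.7%) a lower one, together 496 (3.69%), at a false discovery rate (FDR, Benjamini-Hochberg over all tested genes in the edgeR quasi-likelihood test) below 0.01 and a fold change above 2. With no fold limit 1687 genes (12.6%) had an FDR below 0.01, 5.8% higher and 6.76% lower, and at an unadjusted p below 0.05 22.2% of all tested genes were higher and 22.1% lower, which are the shares to set beside the counts of that kind given for gene lists. The 6964 other genes of the table had too few counts and were not tested. The libraries of the strains did not overlap for any of the 496 called genes, as for 24.3% of all tested genes in the higher and 24.6% in the lower direction. The median log2FC was 2.13 among the higher genes and −1.21 among the lower genes, while that of all tested genes was 0.01. Of the higher genes 226 differed by more than 4-fold, and of the lower genes 22. The number of calls depended on single libraries. Without met-2Δ library a, b or c, 69, 111 or 150 genes were higher and 33, 37 or 40 lower, and without met-2-CD library b 60 were higher and 33 lower. Without met-2-CD library a 489 were higher and 302 lower, and without library c 899 were higher and 79 lower. In none of these fits did a gene called in both carry the opposite sign. Calls that held in the full fit and in all 6 reduced fits numbered 54 higher and 31 lower. Among the 54 are C38D9.2, C55C3.3, F10D11.6, C08F11.7, sri-62, F40D4.13 and sma-4. Of the 31, 15 lie in 1 stretch of chromosome II, and sel-2, shc-1 and clsp-1 are among the rest.

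**Figure D1:**
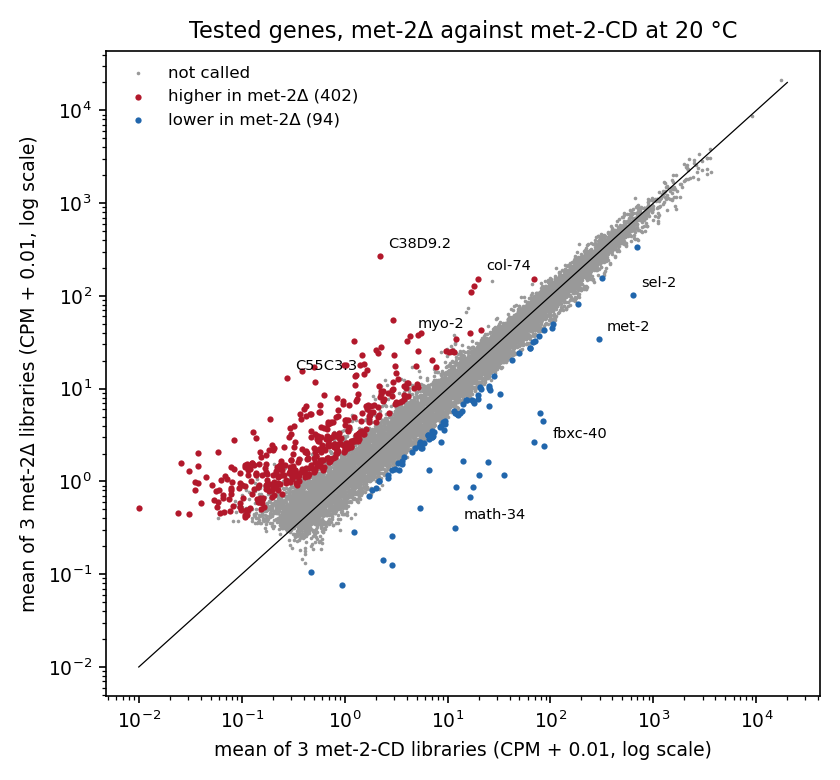
Mean level of each of the 13428 tested genes in met-2Δ (vertical axis) against met-2-CD (horizontal axis), in CPM plus 0.01 on log scales; the line marks equal levels, red points are the 402 genes with higher and blue points the 94 with lower levels in met-2Δ. Most red points lie below 10 CPM, C38D9.2 stands apart at 268 against 2.18 CPM, and a group of blue points near fbxc-40 and math-34 lies far below the line.

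Most of the genes that were higher in met-2Δ were weakly expressed. Their median level was 2.24 CPM in met-2Δ, against 0.523 CPM in met-2-CD, and WT embryos had 0.317 CPM. In met-2-CD 281 of the 402 lay under 1 CPM, and in met-2Δ 52 exceeded 10 CPM. Among genes averaging under 1 CPM over the 6 libraries 7.45% were called higher, among those between 1 and 10 CPM 5.64%, between 10 and 100 CPM 0.524% and above 100 CPM 0.0789%. In met-2-CD 254 of the 402 were at no more than 2 times their WT level and 148 were above it. The annotation classes 384 of the 402 as protein coding and 13 as pseudogenes, which is 6.25% of the 208 pseudogenes tested.

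The clearest difference was at C38D9.2, a protein-coding gene on the right arm of chromosome V (17567150 to 17571742) that has no assigned name. It was at 263, 271 and 269 CPM in met-2Δ, against 2.04, 2.45 and 2.05 CPM in met-2-CD. WT embryos averaged 3.32 ± 0.244 CPM. The 3 met-2Δ libraries agreed closely, and the met-2-CD libraries stayed below the WT level. The log2FC was 6.93 ± 0.09 (edgeR FDR 1.07e-08), and it stayed between 6.87 and 7.02 when any 1 library was left out.

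C55C3.3 on chromosome IV (5685287 to 5688273), one of the loci that the study examined for chromatin marks, was at 12.8, 13.3 and 13.1 CPM in met-2Δ, against 0.191, 0.359 and 0.246 CPM in met-2-CD. The gene was thus low in all met-2-CD libraries, below the WT mean of 0.753 ± 0.132 CPM. Its log2FC was 5.58 ± 0.22 (edgeR FDR 7.8e-06). Of the other loci that the study assayed, F10D11.6 on chromosome I was at 29.6, 21.5 and 21.4 CPM in met-2Δ, against 1.44, 1.67 and 3.14 CPM in met-2-CD (log2FC 3.52 ± 0.30, FDR 0.000491). bcl-11, a zinc-finger gene, had a log2FC of 3.43 (FDR 0.00101), the collagen gene col-166 3.92 (FDR 0.00184) and the ground-like gene grl-16 3.03 (FDR 0.00119). These 5 of the 8 assayed loci were called higher, and 2 without met-2-CD library b. The study picked its loci from classes defined on RNA-seq of these strains, so the count is a description and no independent evidence of direction. Its classes were genes specific to met-2Δ and genes derepressed in both mutants, with unc-119 as a gene independent of met-2.

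The other assayed loci, which include the met-2 independent gene unc-119, were not called. For glf-1 and nep-17 the met-2-CD libraries were far apart. glf-1, which encodes UDP-galactopyranose mutase, an enzyme of surface glycan synthesis, was at 54.6, 52.2 and 53.3 CPM in met-2Δ, against 20.4, 42.7 and 87 CPM in met-2-CD (log2FC 0.09 ± 0.42, FDR 0.892). The met-2-CD values lay on both sides of the met-2Δ values. nep-17, a neprilysin-like peptidase gene, was at 61.1, 48.3 and 59.1 CPM in met-2Δ, against 14.8, 21.9 and 52.1 CPM in met-2-CD (log2FC 0.92, FDR 0.112), and it was called only without met-2-CD library c. unc-119, a gene expressed throughout the nervous system, had a log2FC of −0.17 (FDR 0.148).

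Several further genes were close to off in met-2-CD and expressed with little spread in met-2Δ. C08F11.7 on chromosome IV gave 151 counts over the 3 met-2Δ libraries and 7 over the 3 met-2-CD libraries (ratio of CPM 39.7, exact 95% interval 18.8 to 100.5, counting error only). sri-62, a serpentine chemoreceptor gene, gave 80 and 5 counts (ratio 29.5, interval 12.1 to 93.2), and its neighbour set-11, a SET-domain gene, gave 76 and 9 (ratio 15.5, interval 7.77 to 35.3), although its call did not hold in all reduced fits. Both lie on the left part of chromosome II. A pseudogene on chromosome V (WBGene00015359, 5876370 to 5879849) averaged 11.7 ± 1.18 CPM in met-2Δ, against 0.51 ± 0.0943 CPM in met-2-CD (log2FC 4.49, FDR 1.46e-05), and F40D4.13, also on chromosome V, averaged 6.73 ± 0.185 CPM in met-2Δ, against 0.56 ± 0.05 CPM in met-2-CD (log2FC 3.57, FDR 2.74e-05; SD, n = 3 each).

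Some genes with smaller changes also had little spread between replicates. sma-4, which encodes a Smad protein of the BMP-like pathway that sets body size, was at 25.9, 24.4 and 25.7 CPM in met-2Δ, against 9.94, 10.2 and 8.88 CPM in met-2-CD (log2FC 1.39 ± 0.10, FDR 0.000251). The groups were far apart relative to their spread. F15D4.5 and F28F8.7, protein-coding genes with no assigned name, had log2FC of 1.27 and 1.21. nekl-1, a NIMA-related kinase gene, had a log2FC of 2.06, with met-2-CD libraries at 2.45, 1.56 and 2.73 CPM. pde-1, a calcium-dependent phosphodiesterase gene, averaged 11.7 CPM in met-2Δ, against 2.95 CPM in met-2-CD (log2FC 1.99, FDR 0.000321).

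**Figure D2:**
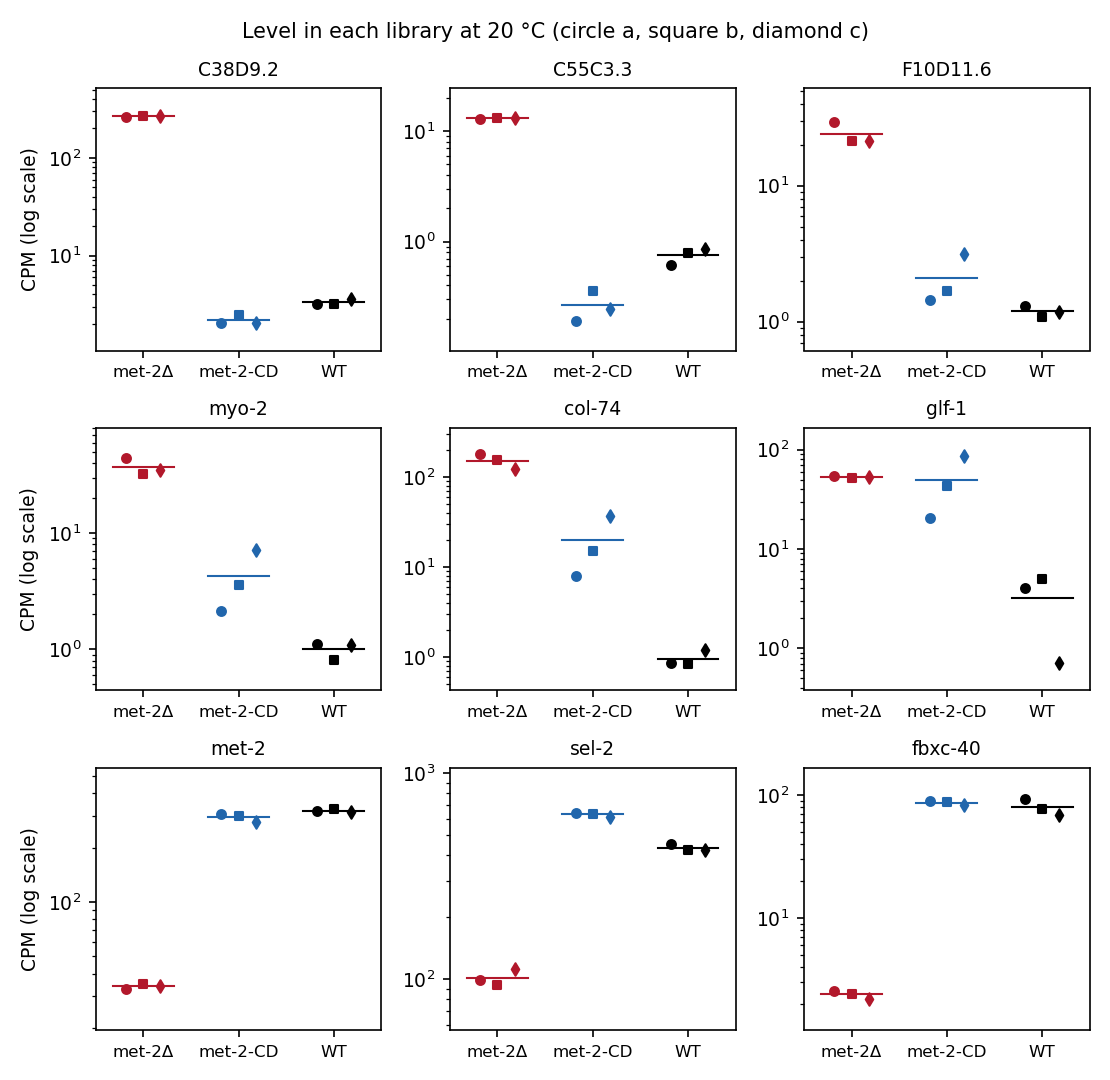
Level of 9 named genes in each library at 20 °C, in CPM on log scales, with met-2Δ in red, met-2-CD in blue and WT (scaled over all 15 libraries) in black; lines are group means, and circles, squares and diamonds are libraries a, b and c. C38D9.2 and C55C3.3 show tight groups, myo-2, col-74 and glf-1 show met-2-CD libraries spread from a (lowest) to c (highest), and met-2, sel-2 and fbxc-40 are lower in met-2Δ.

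Cuticle collagens were the list with the most higher genes. The cuticle is the collagen exoskeleton that the hypodermis secretes from late embryogenesis onwards. Of 102 cuticle collagen genes tested, 32 were higher and 0 lower in met-2Δ (DESeq2 also called 32 and 0), 9 had a lower level at an unadjusted p below 0.05, and the list median log2FC was 0.55. The count was 12, 16 or 22 without met-2Δ library a, b or c and 10 without met-2-CD library b. Without met-2-CD library a 35 were higher and 4 lower, and without library c 37 were higher and 0 lower. col-77 was at 18.6, 15.6 and 12.7 CPM in met-2Δ, against 0.136, 0.401 and 0.595 CPM in met-2-CD (log2FC 5.31 ± 0.37, FDR 0.000251). col-125, col-144 and col-167 had log2FC of 5.06, 5.17 and 4.78. The more abundant col-74 was at 181, 154 and 123 CPM in met-2Δ, against 7.9, 15.1 and 36.7 CPM in met-2-CD (log2FC 2.93 ± 0.48, FDR 0.0045), and col-165 and the cuticlin gene cut-3 showed the same arrangement with log2FC of 2.79 and 2.70. For these genes the met-2-CD libraries did not reach the met-2Δ libraries but differed among themselves by several fold, with library c highest.

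The summed level of the collagen list did not separate the strains. It was 3966, 3727 and 3629 CPM in met-2Δ, against 3380, 4391 and 5988 CPM in met-2-CD, and 1381 to 2468 CPM in WT. The met-2-CD libraries lay on both sides of the met-2Δ libraries. The 32 called members summed to 509.9 CPM in met-2Δ, against 62.5 CPM in met-2-CD, whereas the 70 members that were not called summed to 3255 and 4518 CPM. The median called collagen was at 3.44 CPM in met-2Δ, against 0.531 CPM in met-2-CD, and the median of the others at 1.21 CPM in met-2Δ, against 0.962 CPM in met-2-CD.

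Called members of other lists of secreted body surface proteins were also higher in met-2Δ. Of 40 hedgehog-related genes tested, which encode small secreted proteins made by epithelia in the worm, 12 were higher and 0 lower (median 0.90; 1, 2, 4 and 5 higher without met-2-CD b and met-2Δ a, c and b, and 21 without met-2-CD c; 2 lower at an unadjusted p below 0.05, 0 by DESeq2). grd-13 gave 118 counts in met-2Δ, against 2 in met-2-CD (ratio 108.6, interval 29.4 to 907.3). grl-4 averaged 2.95 CPM in met-2Δ, against 0.128 CPM in met-2-CD (log2FC 4.44). The summed hedgehog-related level overlapped between the strains, at 378, 339 and 328 CPM in met-2Δ, against 250, 302 and 450 CPM in met-2-CD. The 28 members that were not called summed to 290 CPM in met-2Δ, against 324 CPM in met-2-CD. Astacin metalloproteases, some of which process cuticle collagens, had 7 higher of 19 (median 0.91), led by nas-30 with 2.95, 2.38 and 1.66 CPM in met-2Δ, against 0.218, 0.232 and 0.287 CPM in met-2-CD (log2FC 3.23 ± 0.30, FDR 0.000708). That count was 1 or 2 when a met-2Δ library or met-2-CD library b was left out. The astacin sum was 42.9, 37.4 and 36.8 CPM in met-2Δ, against 27.4, 26.5 and 34.7 CPM in met-2-CD. Members of the hypodermis list, by contrast, which holds transcription factors and structural genes of the tissue that secretes the cuticle, included 0 called genes of 19 by edgeR or by DESeq2. At an unadjusted p below 0.05, 11 of them were lower and 0 higher. Without met-2-CD library a 2 hypodermis genes and 1 hedgehog-related gene were called lower, and without met-2Δ library c 1 hypodermis gene was.

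Some genes of the pharynx and of neurons were higher as well. The pharynx is the feeding organ of the worm, and its muscle and gland genes come on when the organ differentiates. Of 15 pharynx genes tested, 6 were higher and 0 lower (DESeq2 7 and 0; 5 lower at an unadjusted p below 0.05, and 2 called lower without met-2-CD library a). The pharyngeal myosin gene myo-2 was at 43.8, 32.5 and 34.9 CPM in met-2Δ, against 2.12, 3.56 and 7.1 CPM in met-2-CD (log2FC 3.1 ± 0.38, FDR 0.00158), and myo-1 had a log2FC of 2.87 and the pharyngeal gland gene phat-1 2.63. Of 27 pan-neuronal and neurotransmitter genes, 5 were higher: eat-4, the vesicular glutamate transporter, with a log2FC of 2.25, unc-17, the vesicular acetylcholine transporter, with 2.02, unc-25, the GABA-synthesising enzyme, with 2.0, snt-1, synaptotagmin, with 1.80, and ida-1, a dense-core vesicle protein, with 1.09. No neuronal gene stayed called, and at most 1 pharynx gene did, when a met-2Δ library or met-2-CD library b was left out, while 9 neuronal and 8 pharynx genes were called without met-2-CD library c. Of 72 ligand-gated ion channel genes 8 were higher (0 to 4 without a met-2Δ library, 0 without met-2-CD b and 19 without met-2-CD c), including lgc-45 (log2FC 2.19) and lgc-21 (1.77), and of 55 potassium channel genes 5 were higher and 1, twk-46, lower (0 of each without a met-2Δ library or met-2-CD b, and 10 higher without met-2-CD c). Higher calls made up 40% of the pharynx and 18.5% of the neuronal list. They made up 11.1% of the ligand-gated and 9.09% of the potassium channel list, where lower calls made up 0% and 1.82%. Of all tested genes 2.99% were higher and 0.7% lower. In whole embryos a larger number of differentiated cells and more RNA per cell cannot be told apart.

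The body wall muscle, intestine and homeobox lists had 4.55%, 13.3% and 1.32% of their tested members called higher, against 2.99% of all tested genes. Of 22 muscle genes, 1 was called, unc-22, which encodes the giant protein twitchin, at 174, 129 and 157 CPM in met-2Δ, against 47.3, 65.1 and 95.3 CPM in met-2-CD (log2FC 1.14 ± 0.23, FDR 0.00953), and it was lost when any 1 library other than met-2-CD c was left out. The list median was −0.13. At an FDR below 0.01 with no fold limit 1 muscle gene was higher and 6 were lower, and at an unadjusted p below 0.05 4 were higher and 7 lower. Of 15 intestine genes, ifc-2, an intestinal intermediate filament gene (log2FC 1.87), and vha-6, an intestinal proton pump subunit gene (1.54), were higher, with a list median of −0.20. With no fold limit 2 intestine genes were higher and 3 lower at an FDR below 0.01, and 3 higher and 6 lower at an unadjusted p below 0.05. Without met-2-CD library a 1 intestine gene was called lower. Of 76 homeobox genes, 1 was higher, ceh-18 (1.70), 0 were lower (DESeq2 1 and 0), and the list median was −0.40. At an FDR below 0.01 with no fold limit 4 homeobox genes were higher and 18 lower, at an unadjusted p below 0.05 11 were higher and 39 lower, and 7 were called lower without met-2-CD library a. The calls of ifc-2, vha-6 and ceh-18 were not made without a met-2Δ library or without met-2-CD library b.

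Maternal and germline genes held no called member. All 25 maternal and germline RNA regulators had a positive log2FC, with a median of 0.43. None passed the fold limit in edgeR or in DESeq2, 7 had an FDR below 0.01 in edgeR (5.8% of all tested genes were higher by that rule) and 21 an unadjusted p below 0.05 (22.2% of all). Of 13 oocyte and eggshell genes 10 had a positive log2FC. The maternal and germline RNA regulators summed to 6341, 6441 and 6937 CPM in met-2Δ, against 5765, 4774 and 4378 CPM in met-2-CD, and 5344 to 6616 CPM in WT. Among the met-2-CD libraries this sum was highest in a and lowest in c, the reverse of the order for the collagens. The hypodermis list summed to 5265, 4750 and 5669 CPM in met-2Δ, against 7181, 7609 and 8829 CPM in met-2-CD, with 3757 to 5353 CPM in WT. Early zygotic lineage factors had a median of 0.02 with 0 of 26 called by either tool, and 4 higher and 5 lower at an unadjusted p below 0.05. Within met-2-CD 74, 75 and 253 of the 402 higher genes were highest in library a, b and c, against 33.7%, 28.2% and 38.2% of all tested genes. Library c was thus the highest more often among the higher genes than among all tested genes. Of the 402, 224 were lowest in library a, for which the share of all tested genes was not computed. The maternal, hypodermis and collagen sums thus differed between libraries of 1 strain as well as between strains, and their part in the calls was not tested.

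**Figure D3:**
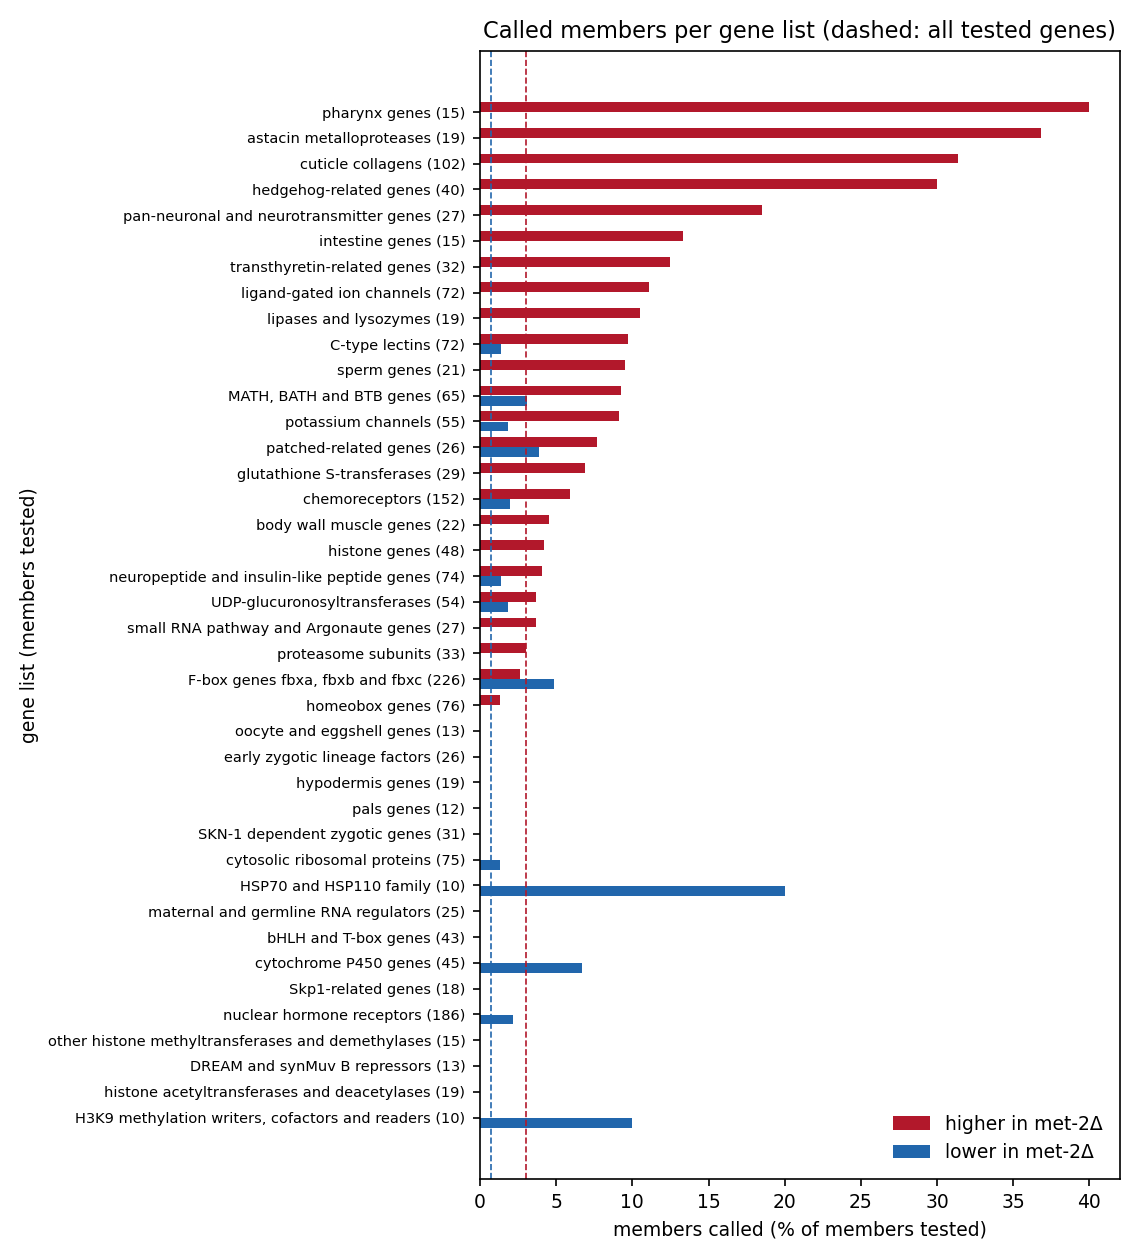
Share of tested members called higher (red) or lower (blue) in met-2Δ, relative to met-2-CD, for each gene list with at least 10 tested members, whose number is in brackets; dashed lines are the shares among all 13428 tested genes, 2.99% higher and 0.7% lower. Pharynx genes (40%), astacins (36.8%), cuticle collagens (31.4%) and hedgehog-related genes (30%) lie far to the right of the dashed red line, and the blue bar of the F-box genes comes from 11 of 226 members.

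Most listed genes that write, read or counter chromatin marks differed little in their RNA. The SET-domain gene set-11, described above, is in none of these lists and was called higher (log2FC 3.90). Among 10 writers, cofactors and readers of H3K9 methylation only met-2 was called. Of 19 histone acetyltransferases and deacetylases, 13 genes of the DREAM and synMuv B repressor group and 15 other histone methyltransferases and demethylases, 0 were called by edgeR or by DESeq2, with medians of −0.12, −0.05 and 0.01. At an unadjusted p below 0.05, 1 gene in each of these lists was higher, and 4, 3 and 4 were lower. Of 48 histone genes, 6 were higher and 6 lower at an FDR below 0.01 with no fold limit, and 9 higher and 14 lower at an unadjusted p below 0.05. Their median log2FC was −0.05. With the fold limit 0 were called lower (2 without met-2-CD library a), and 2 (4.17%, against 2.99% of all tested genes) were called higher. One was the histone H2A gene his-47, at 3.38, 2.76 and 3.12 CPM in met-2Δ, against 0.817, 0.886 and 0.759 CPM in met-2-CD (log2FC 1.90, FDR 0.000991), and the other was the variant histone H3 gene his-69 (1.35). Reads that align to more than 1 near-identical histone gene were not kept, so the counts of such genes are uncertain. sago-2, an Argonaute gene of the secondary small RNA pathway, was the only called one of 27 small RNA genes. It was at 1.92, 1.86 and 1.66 CPM in met-2Δ, against 0.735, 0.823 and 0.821 CPM in met-2-CD (log2FC 1.19, FDR 0.00486). WT embryos at 20 °C stood well above both at 17.8 ± 1.48 CPM. sago-2 was not called without any 1 met-2Δ library or without met-2-CD library b. At 37 °C it averaged 1.44 CPM in WT and 3.33 CPM in met-2Δ.

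F-box and MATH or BTB genes, which encode adaptors that bring proteins to ubiquitin ligases and lie in large clusters on the chromosome arms, had calls in both directions. Of 226 F-box genes, 6 were higher (2.65%, close to the 2.99% of all tested genes) and 11 lower (4.87%, against 0.7% of all), and the list median was 0.26. Leaving out 1 library gave 2 to 8 higher, with 2 without met-2Δ a and without met-2-CD b, and 10 to 12 lower. fbxa-192 was at 6.6, 7 and 8.35 CPM in met-2Δ, against 1.14, 0.78 and 0.923 CPM in met-2-CD (log2FC 2.95 ± 0.20, FDR 0.00025). fbxa-43 and fbxa-107 had log2FC of 2.73 and 1.75. Of 65 MATH, BATH and BTB genes, 6 were higher, among them bath-1, bath-3 and bath-45 with log2FC of 1.57, 1.31 and 1.73, and 2 were lower. Of the tested members of this list 9.23% were thus higher and 3.08% lower. None of those 6 higher calls was made when a met-2Δ library or met-2-CD library b was left out. Of 1300 chemoreceptor genes in the table only 152 could be tested. Of these, 9 (5.92%) were higher and 3 (1.97%) lower. There were 1 or 2 higher and 1 lower without a met-2Δ library or met-2-CD b, and 14 higher without met-2-CD c.

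All 11 lower F-box genes and both lower MATH or BTB genes lay in 1 stretch of chromosome II. There 17 consecutive tested genes, from C32B5.6 to fbxb-40 (968406 to 1049949, 81.5 kb), were lower in met-2Δ, with log2FC between −5.26 and −2.14 and a median of −4.10. Their levels summed to 23.1 CPM in met-2Δ, against 472.6 CPM in met-2-CD, while WT embryos had 667.6 CPM. The 8 further genes in the stretch that had too few counts to test gave 4 counts in met-2Δ, against 123 in met-2-CD. fbxc-40 was at 2.55, 2.42 and 2.21 CPM in met-2Δ, against 89.6, 87.7 and 83.7 CPM in met-2-CD (log2FC −5.17 ± 0.09, FDR 4.01e-08). math-34 was at 0.196, 0.373 and 0.352 CPM in met-2Δ, against 9.83, 11.9 and 13.7 CPM in met-2-CD (log2FC −5.26 ± 0.26, FDR 2.74e-05), and btb-11 at 6.29, 5.18 and 5.08 CPM in met-2Δ, against 80.3, 83.9 and 70.6 CPM in met-2-CD (log2FC −3.82 ± 0.11, FDR 1.41e-06). In WT embryos these genes stood at 79.7, 7.6 and 97.3 CPM, nearer to met-2-CD than to met-2Δ. The change ended sharply: of the 15 tested genes on either side, none was called lower (edgeR, FDR and fold), 2 were called higher, and the lowest log2FC was −0.92. In met-2Δ embryos at 37 °C the same genes were low as well. All 16 of the 17 that could be tested there were below WT embryos at 37 °C, with log2FC between −5.03 and −2.83. The met-2 deletion and any other difference of the met-2Δ strain cannot be told apart here.

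**Figure D4:**
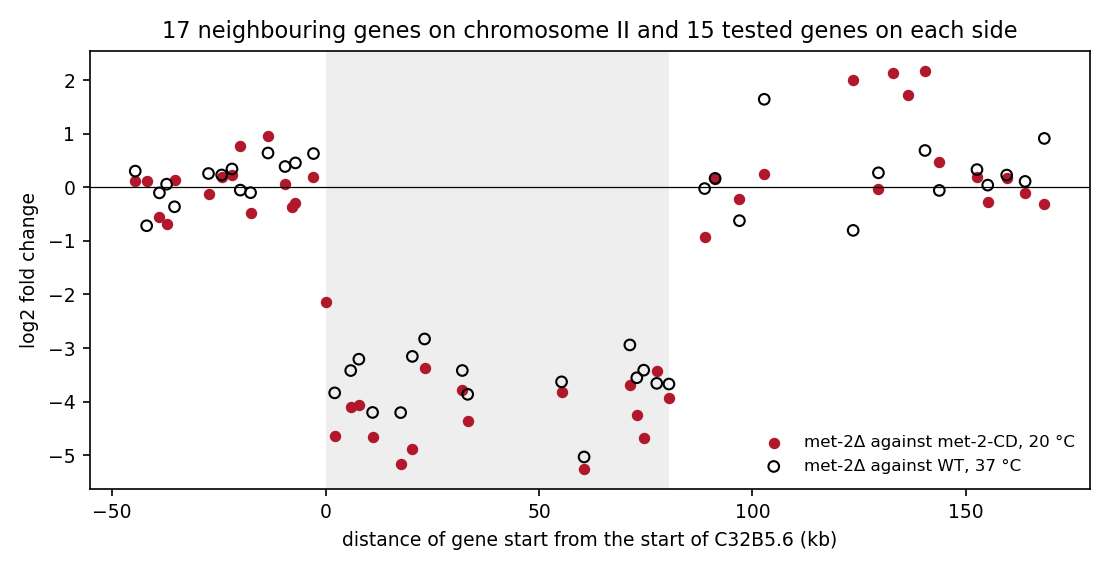
Log2 fold change of each tested gene (vertical axis) by the distance of its start from that of C32B5.6 in kb (horizontal axis), for the 17 genes of the chromosome II stretch (grey) and 15 tested genes on each side; filled red circles compare met-2Δ with met-2-CD at 20 °C and open circles met-2Δ with WT at 37 °C. Both sets lie below −2 inside the stretch, and outside it the values at 20 °C run from −0.92 to 2.18.

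Outside this stretch, sel-2 on chromosome III, a neurobeachin-related gene first known as a negative regulator of LIN-12/Notch signalling, was at 99.1, 93.6 and 112.5 CPM in met-2Δ, against 646, 636 and 617 CPM in met-2-CD (log2FC −2.64 ± 0.08, FDR 2.05e-06), and WT embryos averaged 434 ± 17.1 CPM. The sel-2 gene showed the largest drop in CPM of all genes that were lower. shc-1, an adaptor of insulin and stress signalling, averaged 1.65 ± 0.0402 CPM in met-2Δ, against 14.3 ± 1.36 CPM in met-2-CD (SD, n = 3 each; log2FC −3.11, FDR 2.17e-05). Metabolic genes included acdh-1, an acyl-CoA dehydrogenase, with a log2FC of −1.89 (FDR 0.00131), and acdh-2 (−1.31), whose annotated span overlaps that of the insulin-like gene ins-13 (−1.27) on the same strand, so that these counts are not independent. clsp-1, the claspin gene of the replication checkpoint, averaged 81.1 CPM in met-2Δ, against 186.8 CPM in met-2-CD (log2FC −1.2, FDR 5.18e-05), and nid-1, the basement membrane protein nidogen, 336 CPM in met-2Δ, against 699 CPM in met-2-CD (log2FC −1.06, FDR 0.000705).

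The inducible HSP70 genes F44E5.4 and F44E5.5 were the only members of the HSP70 and HSP110 list that were called, and both were lower. F44E5.5 was at 11.7, 9.61 and 9.31 CPM in met-2Δ, against 25.1, 23.6 and 27.4 CPM in met-2-CD (log2FC −1.31 ± 0.12, FDR 0.000705), and F44E5.4 had a log2FC of −1.35. They are close copies that lie next to each other, and reads that align to both were not kept, so their counts may be too low. WT embryos at 20 °C had 0.0803 ± 0.0491 CPM of F44E5.5, so the 2 mutants stood above WT at 20 °C. Of 8 small heat shock protein genes 0 were called by edgeR or DESeq2 (3 lower and 0 higher at an unadjusted p below 0.05).

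The libraries at 37 °C gave a separate view of met-2Δ, with no library in common, but against WT embryos that keep catalytic activity, and after heat. The study reports that heat disperses the MET-2 foci of WT embryos and partly lowers their H3K9 dimethylation. It also reports that most met-2Δ target genes rise in heated WT embryos. WT at 37 °C is thus not a reference with MET-2 silencing intact, and the overlap between the temperatures is no test of replication. There 312 of 14791 tested genes (2.11%) were at a higher and 990 (6.69%) at a lower level in met-2Δ, relative to WT. Of the 402 genes higher at 20 °C 400 could be tested, and 49 (12.2%) were again higher and 63 (15.8%) were lower, with a median log2FC of −0.61. C38D9.2 averaged 244 CPM in met-2Δ at 37 °C, against 5.34 CPM in WT at 37 °C (log2FC 5.55, FDR 9.39e-14), C55C3.3 11.7 and 0.578 CPM (4.36), set-11 4.94 and 0.543 CPM (3.21), the pseudogene WBGene00015359 9.1 and 0.281 CPM (5.05), F28F8.7 30.2 and 4.05 CPM (2.93) and sma-4 27.6 and 7.87 CPM (1.84). None of the 49 was a cuticle collagen, hedgehog-related, astacin, pharynx or neuronal list member.

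Among the 63 genes that were higher at 20 °C and lower at 37 °C were 3 cuticle collagens, 4 pharynx genes, 3 transthyretin-related genes and 1 hedgehog-related gene, while most of the 63 belonged to none of these lists. An example of the 63 is abu-14, a pharynx gene, with 68.2 CPM in met-2Δ at 37 °C, against 155 CPM in WT at 37 °C (log2FC −1.15), beside a log2FC of 2.3 at 20 °C. At 20 °C abu-14 averaged 25.5 CPM in met-2Δ and 1.38 CPM in WT. col-74 and myo-2 were not called but had log2FC of −0.88 and −0.70 at 37 °C. The median range of the met-2-CD libraries, as the log2 of their highest over their lowest value with 0.5 CPM added to each, was 0.27 for the 49 genes and 0.41 for the 63. The same range of the met-2Δ libraries was 0.20 for the 49 and 0.49 for the 63, and the median level in met-2-CD was 0.715 and 0.279 CPM. Of the 94 lower genes 92 could be tested at 37 °C. Of these, 26 (28.3%) were lower again, 16 of them in the chromosome II stretch. The others included sel-2 (−1.96), shc-1 (−3.03) and acdh-1 (−2.19). None of the 92 was higher in edgeR (0 genes), with 4 positive at an unadjusted p below 0.05. Over the 13128 genes tested at both temperatures Pearson's r of the log2FC values was 0.01 and Spearman's rho 0.07. These are across genes, which are not independent replicates.

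**Figure D5:**
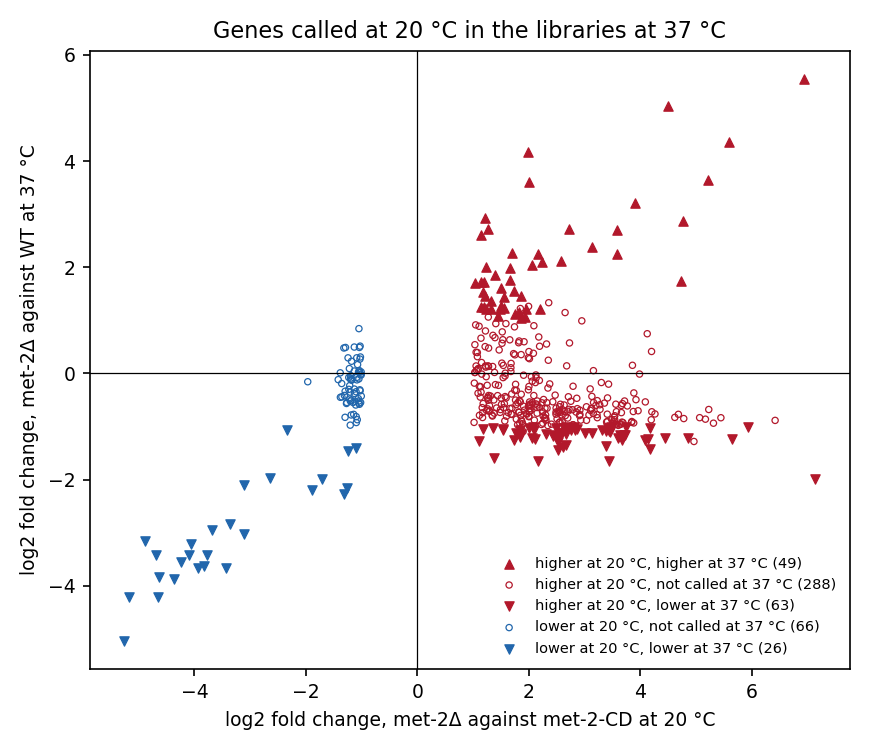
Log2 fold change in met-2Δ against WT at 37 °C (vertical axis) by that in met-2Δ against met-2-CD at 20 °C (horizontal axis) for the genes called at 20 °C and tested at both; triangles point up or down where the gene was also called higher or lower at 37 °C. Of the red points (higher at 20 °C) 49 are called above and 63 below 0 at 37 °C, and all 26 called blue points (lower at 20 °C) lie below 0.

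Higher genes were found on all 6 chromosomes. Their share of the tested genes was 4.12% on V, 3.73% on IV, 3.43% on II, 2.97% on X, 2.04% on III and 1.69% on I. On the autosomes 3.48% of 6641 arm genes (outer 33.3% of the chromosome on either side) were higher, against 2.38% of 4622 genes of the centres, and on X 2.72% of 1215 and 3.43% of 671. The right arm of V stood highest with 5.56%. Lower genes made up 1.32% of the genes of chromosome II, which holds the stretch described above, and 0.29% to 1.03% elsewhere. Near met-2 itself 0 of 36 tested genes within 100 kb were called, and 6 were higher and 2 lower of 360 within 1 Mb.

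Called genes tended to have called neighbours. Of the 770 tested genes next to a higher gene 9.87% were higher themselves, against 2.59% of the other 12391. Of the 153 genes next to a lower gene and outside the chromosome II stretch 5.23% were lower, against 0.523% of the others. Runs of 3 consecutive higher genes were col-144, col-145 and col-10 on V, chtb-3, col-167 and col-169 on X, clec-62, clec-63 and clec-66 on II, pqn-63, idpc-7 and idpc-4 on V, R12E2.15, R12E2.14 and R12E2.7 on I, and the pseudogenes WBGene00018669, WBGene00018671 and WBGene00022688 on II. C55C3.6, near C55C3.3 on chromosome IV (5683184 to 5684727), was higher too, with 0.592 CPM in met-2Δ, against 0.0483 CPM in met-2-CD (log2FC 3.58).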

How the data were processed

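The authors extracted RNA from early embryos. Their methods name an mRNA sequencing kit and also a total RNA kit after ribosomal RNA depletion. They do not say which libraries used which. The authors trimmed reads with Trimmomatic, aligned them to ce10 with hisat2 through QuasR and kept unique alignments. The deposited values are raw counts of reads per gene over WS220 exons on the gene's strand, with no normalization and no pooling of replicates. Near-identical genes therefore lose shared reads.

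Counts of the 3 met-2Δ and 3 met-2-CD libraries at 20 °C were analysed with edgeR 4.0.16 (R 4.3.3): filterByExpr, TMM scaling and the quasi-likelihood F test without covariates. Genes were called at FDR below 0.01 and fold above 2, the thresholds of the study. Standard errors were derived from the F statistic. The met-2Δ and WT libraries at 37 °C were fitted the same way on their own. CPM of WT and of the 37 °C groups were scaled over all 15 libraries. Symbols (94.1% of genes) and WBcel235 positions (97.4%) were matched by gene identifier, and no coordinate was converted.

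Each group had 3 biological replicates according to the study. A floor of 3 counts corresponds to 0.112 to 0.151 CPM in met-2Δ and 0.0615 to 0.0817 CPM in met-2-CD libraries, and count ratios carry exact 95% intervals for counting error only. No replicate pair agreed within sampling noise. Column letters could not be matched to the replicate numbers of the labels. The members, the 43 gene lists and the rules were chosen with earlier results of these data known. Named genes were met-2, its partners and loci assayed by the study, the 10 highest and 10 lowest log2FC among called genes whose libraries do not overlap and whose higher group averages at least 1 CPM, the 10 called genes with the largest difference in CPM, and up to 4 called members of each list with the largest log2FC and at least 1 CPM. Other named genes (among them sma-4, F40D4.13, nekl-1, pde-1, shc-1, acdh-1, set-11, WBGene00015359, fbxa-192 and the genes of runs) were chosen after their values were seen. The fit was tested on simulated data. DESeq2 1.42.0, other scalings, filters, thresholds, libraries in the fit, thinning and leaving out libraries were tried as alternatives.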

Additional observations from a re-analysis of the deposited data

How the results depend on the processing

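The counts of 402 higher and 94 lower genes moved with the libraries, the model and the thresholds, and no gene called in both the full and another fit changed sign under any alternative. With all 15 libraries in the fit 767 genes were higher, with the 12 libraries other than WT at 20 °C 756 were higher and 175 lower, and with the edgeR likelihood ratio test 725 were higher. A minimum of 50 counts in 3 libraries left 167 higher, and 95 on the autosome arms in place of 231. Without a count filter 162 were lower. At a fold above 4 the counts were 226 and 22, at FDR alone 779 and 908, and at FDR below 0.05 770 and 149. Leaving out 1 library gave 60 to 899 higher and 33 to 302 lower genes. Fewer residual degrees of freedom remain in those fits. Of the 103 named genes 41 to 102 kept their side of the threshold in them. With the column letter as a replicate block 25 genes were higher and 23 lower. No label says whether the letters pair libraries. Same-letter correlations of the deviations were −0.23, 0.12 and −0.17. Among unlike letters the correlations ran from −0.06 to 0.25. That of met-2Δ a and met-2-CD c was 0.25 and that of met-2Δ c and met-2-CD a 0.21. With deviations centred within 3 libraries the correlations cannot decide whether libraries were paired, and no other pairing was fitted. With library totals, DESeq2 size factors, the DESeq2 Wald test, a prior count of 8 and thinning to the smallest library, 347 to 460 genes were higher and 71 to 113 lower. Under the replicate block 77 named genes lost their call. Neither scaling by library totals nor the fit of all 15 libraries at 37 °C, both chosen after seeing the data, moved the counts of 49, 63 and 26 genes by more than 1.5 times (43 to 49, 63 to 94 and 26 to 27). Depth limits the 2187 tested genes under 1 CPM, where the median standard error of log2FC was 0.37, against 0.07 above 100 CPM.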

Other observations

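Nuclear hormone receptors are a large family of transcription factors in the worm. Of 186 tested 4 were lower and 0 higher in met-2Δ, relative to met-2-CD (DESeq2 6 and 0; 77 lower and 10 higher at an unadjusted p below 0.05, where 22.1% of all tested genes were lower and 22.2% higher), and the list median log2FC was −0.28. The 4 were nhr-148 (−1.32), nhr-177 (−1.21), nhr-95 (−1.13) and nhr-44 (−1.06), all on chromosome V. Without met-2-CD library a 14 were lower, and without a met-2Δ library or met-2-CD library b at most 1. Of 45 cytochrome P450 genes 3 were lower, cyp-35C1, cyp-13B1 and cyp-34A1, and 0 higher (DESeq2 3 and 0; 16 lower and 4 higher at an unadjusted p below 0.05), and none of the 3 was called without any 1 met-2Δ library or without met-2-CD library b.

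Proteasome subunit genes were called higher at 3.03% and cytosolic ribosomal protein genes lower at 1.33%, against 2.99% and 0.7% of all tested genes. Of 33 proteasome subunit genes 32 had a positive log2FC (median 0.28) with 1 called, rpn-6.2 (1.15). Of 75 cytosolic ribosomal protein genes 4 were positive (median −0.29) with 1 called, rpl-37, at 5.74, 6.11 and 5.18 CPM in met-2Δ, against 11.5, 14.3 and 16 CPM in met-2-CD (a log2FC of −1.30 at FDR 0.00154 in edgeR), and WT embryos had 59.3 ± 5.95 CPM. The summed ribosomal protein level overlapped between the strains, at 18579, 17284 and 16849 CPM in met-2Δ, against 18139, 22462 and 23169 CPM in met-2-CD. Of 32 transthyretin-related genes 4 (12.5%) were higher (1 to 8 genes with 1 library left out). They were led by ttr-44 with 100 counts in met-2Δ, against 10 in met-2-CD (ratio 18.4, exact 95% interval 9.61 to 39.6). Of 72 C-type lectin genes 7 (9.72%) were higher (1 to 15 genes with 1 library left out) and 1 (1.39%) lower. The higher ones were led by clec-230 with 106 and 4 counts (ratio 48.8, interval 18.5 to 182).

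Of the remaining lists, neuropeptide and insulin-like genes had 3 higher (4.05%) and 1 lower (1.35%) of 74. Patched-related genes had 2 (7.69%) and 1 (3.85%) of 26, and UDP-glucuronosyltransferases 2 (3.7%) and 1 (1.85%) of 54. Glutathione S-transferases, lipases with lysozymes, and sperm genes had 2 higher (6.9%, 10.5% and 9.52%) and 0 lower of 29, 19 and 21. Of all tested genes 2.99% were higher and 0.7% lower. Leaving out 1 library gave 0 to 12 higher neuropeptide and insulin-like genes (12 without met-2-CD c), 0 to 5 higher and 0 to 5 lower patched-related genes (5 higher without met-2-CD c, 5 lower without met-2-CD a), 1 to 5 lower UDP-glucuronosyltransferases (5 without met-2-CD a), and 0 higher in all 6 lists without met-2Δ a or met-2-CD b. The 0 lower calls of the last 3 lists held in DESeq2, with 4, 2 and 3 members lower at an unadjusted p below 0.05. No member was called by edgeR or DESeq2 among 43 bHLH and T-box genes, 31 SKN-1 dependent zygotic genes, 18 Skp1-related genes, 13 oocyte and eggshell genes, 12 pals genes and 1 yolk protein gene. At an unadjusted p below 0.05 these lists had 3, 14, 4, 8, 2 and 1 members higher and 13, 1, 3, 0, 4 and 0 lower.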
